A study of Homo sapiens with 6 samples.

Results

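The genes described here build and run mitosis, the division of a cell's chromosomes between its daughters. They are 51 of 26475 genes in the deposited table, chosen by name from what their products do, with earlier results of these data known. They comprise mitotic cyclins, kinases and phosphatases, spindle checkpoint and kinetochore proteins, kinesins, spindle and condensin subunits, and cytokinesis factors, and the anaphase-promoting complex was not among them. The samples were HepG2 cells, a human hepatocellular carcinoma line, expressing TAF2 (3 libraries) or enhanced green fluorescent protein (eGFP, 3 libraries). Total RNA was extracted and sequenced from TruSeq libraries on an Illumina HiSeq, and no treatment, time or culture state is named in the labels. TAF2 is a subunit of TFIID, the general transcription factor that marks core promoters. The promoter that drove either gene, whether the cells were pools or clones, and whether replicates were separate cultures are points on which the labels are silent. The p-values therefore speak of variation among these 6 libraries alone, and that variation may be technical.

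When a cell enters mitosis, CDK1 bound to cyclin B is switched on by CDC25 phosphatases, and the chromosomes are compacted by condensin. Microtubules of the spindle attach to kinetochores, and the spindle checkpoint holds back separase until every chromosome is attached. Most of these genes are transcribed in a wave late in the cell cycle, driven in part by FOXM1, so their RNA in a culture follows how many cells divide as well as how much each cell makes. In bulk RNA such as this a larger share of mitotic cells and more RNA per mitotic cell cannot be told apart.

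Library totals ran from 22276308 to 28024004 counts. Levels are given as CPM, counts scaled to a common library total after TMM scaling. TAF2 CPM were 50.1, 48.3 and 47.4 in TAF2 libraries, against 35.8, 40.4 and 37.5 in eGFP libraries, higher by 0.36 on the log2 scale (SE 0.0459; adjusted p = 1.51e-08, edgeR). The 10 hepatocyte markers, all expressed, summed to between 41664 and 43424 CPM in TAF2 and between 52149 and 53533 CPM in eGFP libraries. APOB was the largest part (19630 ± 1117 CPM in TAF2 and 23029 ± 883 CPM in eGFP libraries). At an adjusted p of 0.05 (edgeR) 9 of the 10 were lower in TAF2 cells. The exception was FGB, which was higher (91.8 ± 4.89 CPM in TAF2 and 58.9 ± 0.621 CPM in eGFP libraries). The 6 fibroblast markers summed to between 20.4 and 21.8 CPM in TAF2 and between 8.14 and 9.22 CPM in eGFP libraries. DCN and LUM were at 0, and most of the sum was PDGFRB (19.5 ± 0.674 CPM in TAF2 and 7.87 ± 0.86 CPM in eGFP libraries). The 6 leukocyte markers, with PTPRC and CD3E at 0, were almost wholly LYZ (2254 ± 27.9 CPM in TAF2 and 1942 ± 58.1 CPM in eGFP libraries, SD, n = 3 each). The 5 endothelial markers summed to at most 1.08 CPM in any library, with KDR and TEK at 0. The hepatocyte, fibroblast and leukocyte sums did not overlap between the groups, and their part in the values of the mitosis genes was not tested.

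Most mitosis genes were slightly higher in TAF2 cells, with a log2 fold change above 0 in 38 and below 0 in 13. With all libraries in the fit, those called lower lay on chromosomes 4 and 11. On other chromosomes 7 were below 0 and not called. All 51 passed the filter on low counts. At a Benjamini-Hochberg adjusted p of 0.05 over 12902 tested genes (edgeR quasi-likelihood test), 27 of them rose, 5 fell and 19 were not called. Of all 12902 genes 43% were called, 20.6% as higher and 22.4% as lower. The median log2 fold change of the mitosis genes was 0.10, beside -0.00 (-0.00276) over all tested genes. The changes were small, with the 27 rises between 1.06-fold and 1.21-fold and the 5 falls leaving between 0.877 and 0.937 of the eGFP level. Only CDC25B and ESPL1 differed by more than 1.2-fold, and 0 of the 51 passed a test for changes beyond 1.2-fold (edgeR glmTreat, 0 also at an unadjusted p of 0.05).

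**Figure D1:**
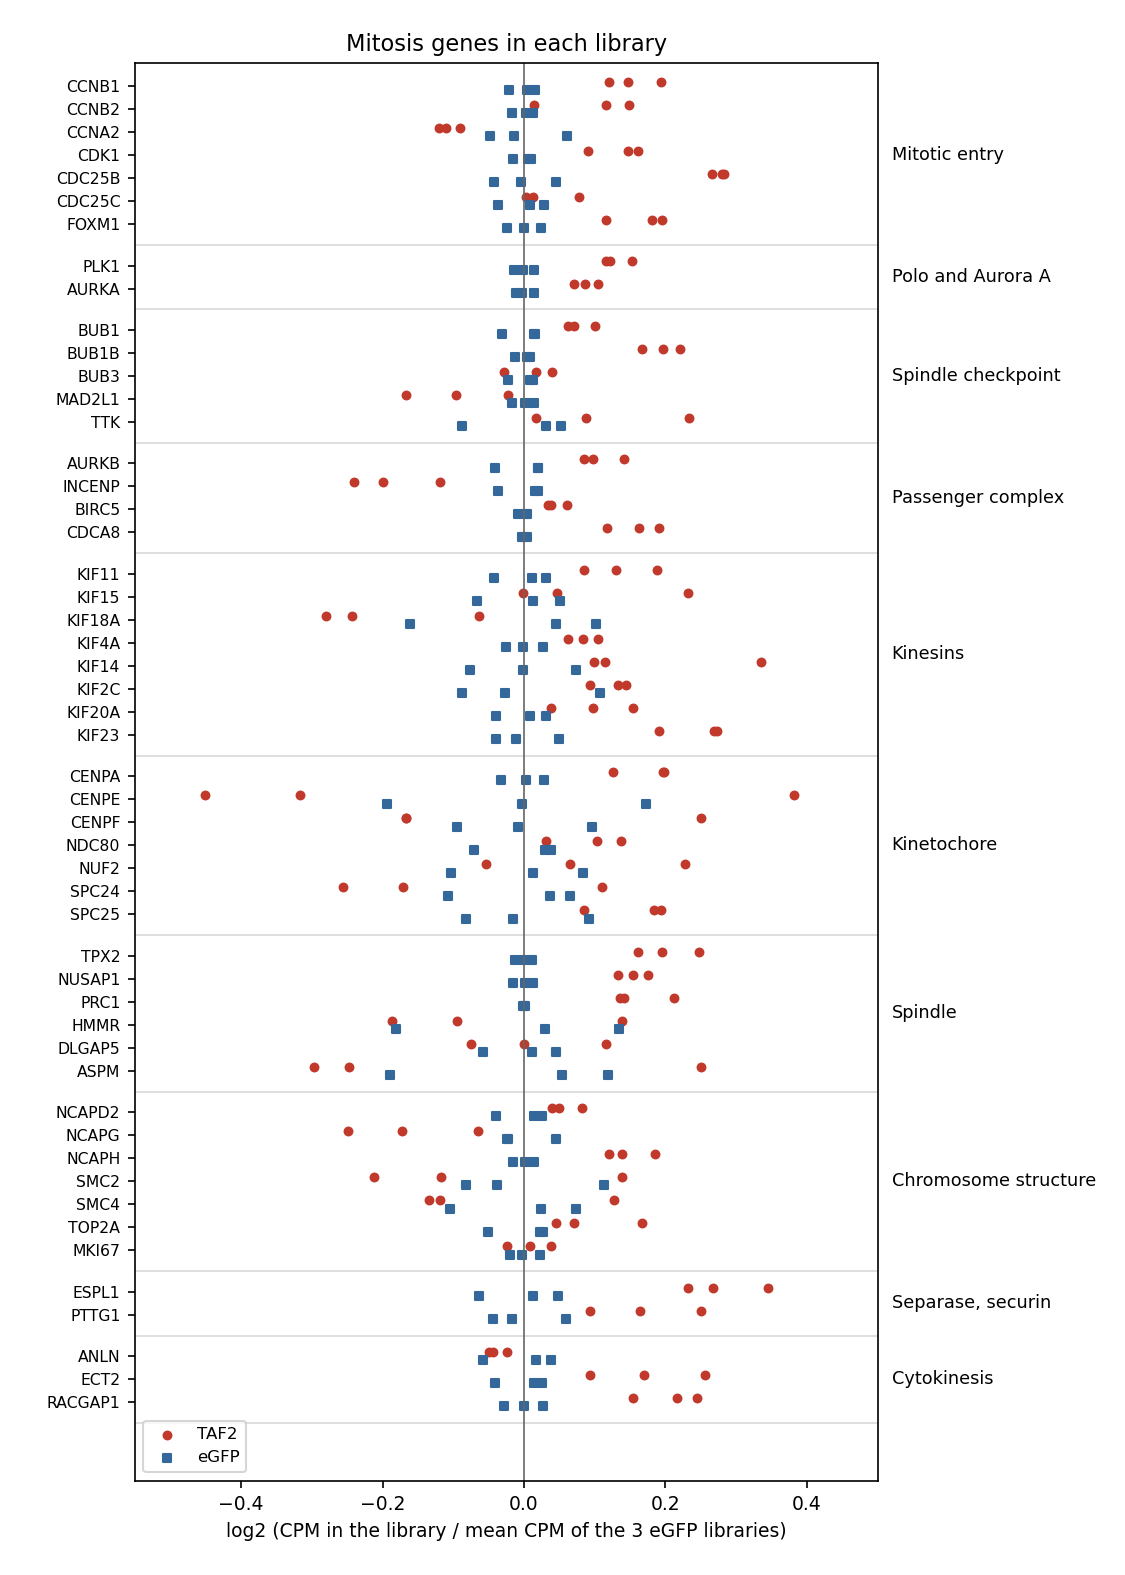
Expression of the 51 mitosis genes in each library, as log2 of CPM over the mean of the 3 eGFP libraries (horizontal axis), with genes grouped by role down the page. Red circles are TAF2 libraries and blue squares eGFP libraries. In 28 genes all red circles lie right of all blue squares, and in 4 genes all lie left of them.

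In 28 of the 51 the 3 TAF2 libraries lay above all 3 eGFP libraries, and in 4 they lay below. Over all tested genes these shares were 24.5% above and 26.1% below. The summed level of the 51 genes was 5487, 5187 and 5296 CPM in TAF2 libraries, against 4979, 5109 and 5052 CPM in eGFP libraries. Each TAF2 library thus held more mitosis RNA than any eGFP library, and the lowest TAF2 library exceeded the highest eGFP library by less than the SD of the TAF2 group. The sum averaged 5324 ± 152 CPM in TAF2 and 5047 ± 65.1 CPM in eGFP libraries (SD, n = 3 each).

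The 5 genes that fell were CCNA2, MAD2L1 and NCAPG on chromosome 4 and INCENP and KIF18A on chromosome 11. In the whole data set the genes of these chromosomes were lower in TAF2 cells, their median being -0.18 (log2) over 413 tested genes of chromosome 4 and -0.27 over 720 of chromosome 11. Of all 1133 tested genes on the pair, 68.3% were called lower and 4.06% higher. Among the 11523 tested genes placed on other chromosomes, 18% were called lower and 22.4% higher. The mitosis genes divided along the same line. On chromosomes 4 and 11, 5 of 6 fell and 0 rose, and on the other chromosomes 27 of 45 rose and 0 fell. Both counts of 0 also held with DESeq2 and limma-voom, and at an unadjusted p of 0.05 in all 3 tools. Without TAF2 replicate 1, however, 3 genes of other chromosomes fell (CENPF, SMC2 and SMC4, described with the spread between replicates), and the total of falls became 9, while leaving out any other library left 3.

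Each of the 6 genes on chromosomes 4 and 11 was nearer to 0 than the median of its chromosome. CCNA2 (chromosome 4, 121816444 to 121823883, GRCh38.p14), for example, was at -0.11 against the chromosome median of -0.18, and INCENP (chromosome 11, 62124011 to 62153169) at -0.18 against -0.27. On the other chromosomes 36 of 45 lay above their chromosome's median. The sixth gene of the pair, CENPE on chromosome 4, was not called.

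**Figure D2:**
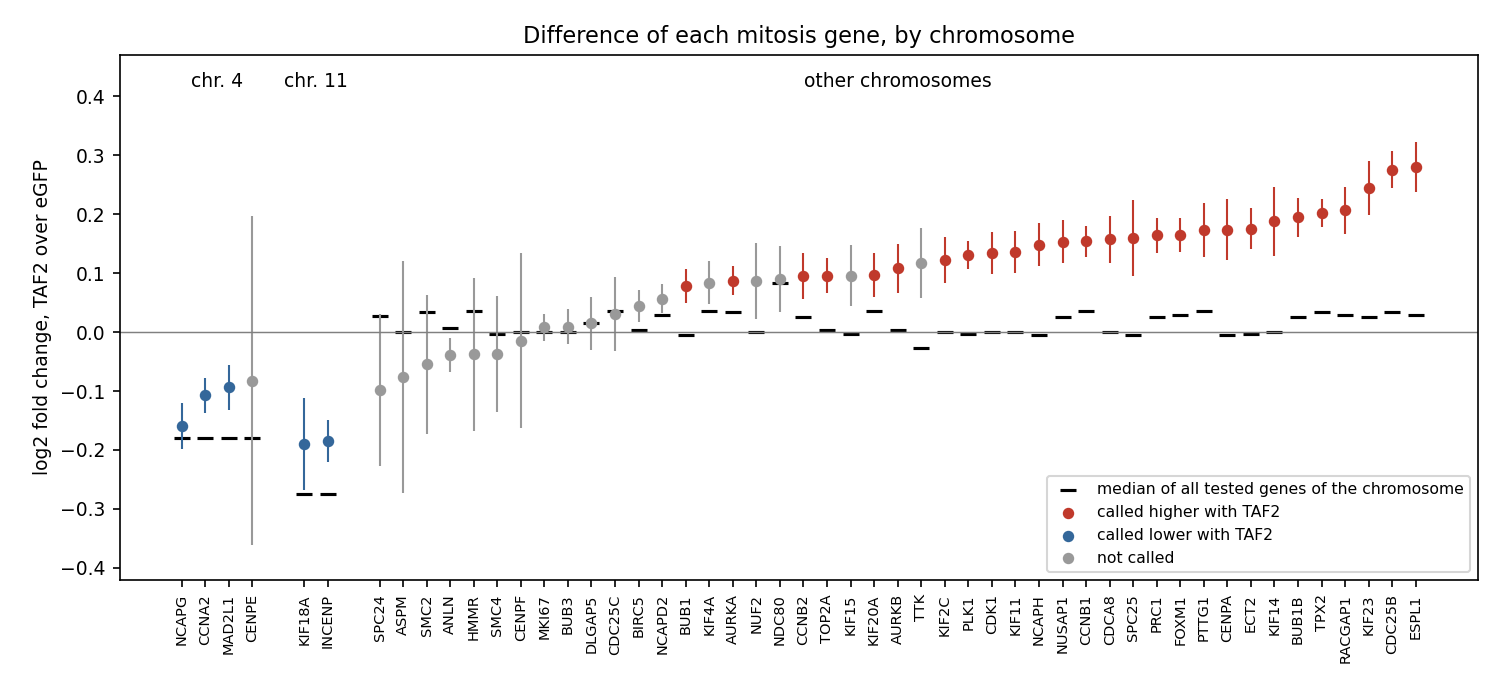
Log2 fold change of each mitosis gene, TAF2 over eGFP (vertical axis; error bars, SE from the edgeR fit), on chromosome 4, chromosome 11 and all others. Red points were called higher, blue lower and grey not called, and black dashes give the median of all tested genes of the gene's chromosome. The 5 blue points lie on chromosomes 4 and 11, and all 6 genes there sit above their dashes.

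Promoters of late cell cycle genes are known for the cell cycle genes homology region (CHR), bound by the DREAM and MuvB-FOXM1 complexes, and for CCAAT boxes, bound by NF-Y. Promoter windows of 300 bases (250 before to 50 after the start, GRCh38.p14, RefSeq) were found for 44 of the 51 genes, those of AURKA, BIRC5, BUB3, FOXM1, RACGAP1, TPX2 and TTK not being in the table. The CHR letters TTTGAA, searched on both strands, were in 32 of 44 windows (72.7%), against 15.4% of 27305 promoters of all genes and 9.62% of 10278 promoters of tested genes. CCAAT, on both strands, was in 32 of 44 (72.7%), against 35.7% of all promoters and 37.1% of those of tested genes. These letter matches are descriptions, not sites. By call, TTTGAA was in 15 of 23 windows of genes that rose, 4 of 5 of genes that fell and 13 of 16 of genes not called, and CCAAT in 20 of 23, 4 of 5 and 8 of 16.

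The windows of 3 genes that rose and 3 that fell, those with the smallest p in each direction among the 44, are printed to set genes of opposite direction side by side. They read 5′ to 3′ on the gene's strand, with each TTTGAA and each CCAAT, on either strand, in capitals.
CDC25B (chr20:3786701-3787000, plus strand): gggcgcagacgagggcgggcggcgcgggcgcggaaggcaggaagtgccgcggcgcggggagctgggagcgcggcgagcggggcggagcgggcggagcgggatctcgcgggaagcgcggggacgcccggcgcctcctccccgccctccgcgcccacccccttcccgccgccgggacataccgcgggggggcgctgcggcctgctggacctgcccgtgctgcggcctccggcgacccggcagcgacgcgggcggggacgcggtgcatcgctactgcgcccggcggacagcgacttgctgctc
ESPL1 (chr12:53268049-53268348, plus strand): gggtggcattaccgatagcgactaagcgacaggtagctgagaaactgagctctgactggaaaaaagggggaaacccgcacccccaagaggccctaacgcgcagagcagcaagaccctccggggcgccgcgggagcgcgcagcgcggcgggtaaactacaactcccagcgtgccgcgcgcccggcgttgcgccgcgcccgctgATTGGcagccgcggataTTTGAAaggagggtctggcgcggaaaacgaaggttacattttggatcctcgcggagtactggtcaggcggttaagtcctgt
BUB1B (chr15:40160819-40161118, plus strand): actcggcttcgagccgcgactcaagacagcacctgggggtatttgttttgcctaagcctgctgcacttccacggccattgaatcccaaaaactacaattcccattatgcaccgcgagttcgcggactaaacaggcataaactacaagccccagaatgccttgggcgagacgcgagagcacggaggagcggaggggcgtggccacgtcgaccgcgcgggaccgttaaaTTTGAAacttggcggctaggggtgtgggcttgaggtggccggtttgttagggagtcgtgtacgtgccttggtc
INCENP (chr11:62123761-62124060, plus strand): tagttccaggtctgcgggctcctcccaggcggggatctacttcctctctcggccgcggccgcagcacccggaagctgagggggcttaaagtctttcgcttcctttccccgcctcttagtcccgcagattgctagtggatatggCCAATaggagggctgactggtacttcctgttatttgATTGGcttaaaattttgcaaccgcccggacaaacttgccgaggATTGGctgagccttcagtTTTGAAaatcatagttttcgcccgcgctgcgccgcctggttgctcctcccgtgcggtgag
NCAPG (chr4:17810729-17811028, plus strand): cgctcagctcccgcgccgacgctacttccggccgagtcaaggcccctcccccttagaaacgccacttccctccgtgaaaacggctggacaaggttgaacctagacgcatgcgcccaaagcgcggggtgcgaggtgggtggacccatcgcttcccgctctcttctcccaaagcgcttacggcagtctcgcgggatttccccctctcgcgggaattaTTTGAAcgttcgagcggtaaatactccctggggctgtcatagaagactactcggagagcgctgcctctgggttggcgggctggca
CCNA2 (chr4:121823834-121824133, minus strand): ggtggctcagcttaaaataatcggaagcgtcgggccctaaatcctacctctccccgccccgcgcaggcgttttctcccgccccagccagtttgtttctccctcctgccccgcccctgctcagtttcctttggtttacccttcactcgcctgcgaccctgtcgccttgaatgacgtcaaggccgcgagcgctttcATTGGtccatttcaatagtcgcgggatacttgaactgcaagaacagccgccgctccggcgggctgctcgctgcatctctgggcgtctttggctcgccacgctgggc
CDC25B, with the smallest p of any mitosis gene, holds neither motif in this window, while INCENP, which fell, holds both, with CCAAT letters at 3 places. ESPL1 holds each of them once.

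Genes of mitotic entry rose in 5 of 7 cases (71.4%) and fell in 1 (14.3%), beside 20.6% and 22.4% of all tested genes. CDC25B, a phosphatase that starts CDK1 activation, had 105, 106 and 106 CPM in TAF2 libraries, against 86.9, 84.6 and 89.9 CPM in eGFP libraries. The groups were well apart, with a log2 fold change of 0.28 (SE 0.0314; adjusted p = 1.15e-09, edgeR). CCNB1, the main cyclin partner of CDK1 in mitosis, had 175, 178 and 184 CPM in TAF2 libraries and 161, 158 and 162 CPM in eGFP libraries, a rise of 0.15 (SE 0.0261; adjusted p = 4.84e-06, edgeR). FOXM1, the transcription factor of the late cell cycle wave, had 123, 129 and 128 CPM in TAF2 libraries and 113, 111 and 115 CPM in eGFP libraries, again without overlap (0.16, SE 0.0291; adjusted p = 9.89e-06, edgeR). CDK1 itself rose by 0.13 to 73.2 ± 1.87 CPM in TAF2 cells, against 66.7 ± 0.615 CPM in eGFP cells (SD, n = 3 each). CCNB2, the second B-type cyclin, rose by 0.10, a call that was lost in 9 of 16 alternatives, among them leaving out any library but TAF2 replicate 1. The related phosphatase CDC25C was not called, with 18.7 ± 0.534 CPM in TAF2 and 18.3 ± 0.423 CPM in eGFP cells and a log2 fold change of 0.03 (SE 0.0628). On the genome it overlaps FAM53C, which had a higher level than CDC25C itself (61.01 CPM in TAF2 and 55.7 CPM in eGFP cells). FOXM1 overlaps RHNO1 (28.4 CPM in TAF2 and 28.2 CPM in eGFP cells) and ITFG2 (5.91 CPM in TAF2 and 8.37 CPM in eGFP cells).

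CCNA2, the A-type cyclin that acts from S phase until early mitosis, went the other way. It had 114, 113 and 116 CPM in TAF2 libraries, against 129, 122 and 119 CPM in eGFP libraries. All TAF2 values were below all eGFP values, with a log2 fold change of -0.11 (SE 0.0298; adjusted p = 0.00305, edgeR) that was -0.07 and not called without eGFP replicate 1. EXOSC9, whose range overlaps it, had 18.9 CPM in TAF2 and 22.5 CPM in eGFP cells. Overlaps here are of whole gene ranges, and how far exons overlap was not tested. Without strand, reads from exon bases that both genes share may not be told apart. The ratio of CCNA2 to CCNB1 CPM was 0.654, 0.637 and 0.63 in TAF2 libraries, against 0.797, 0.77 and 0.734 in eGFP libraries. The ranges of the ratio could not meet, since each gene's groups lay apart and in opposite directions. This pair, like the others compared by ratio, was chosen after its values were seen.

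The polo kinase PLK1 and the Aurora kinase AURKA both rose. PLK1, which drives centrosome maturation and mitotic entry, had 279, 279.7 and 286 CPM in TAF2 libraries and 257, 259.9 and 255 CPM in eGFP libraries (log2 fold change 0.13 with SE 0.0233; adjusted p = 1.17e-05, edgeR). AURKA, the spindle pole kinase, had 207, 205 and 209.6 CPM in TAF2 libraries and 197, 194 and 195 CPM in eGFP libraries, a smaller rise of 0.09 (SE 0.0244; adjusted p = 0.00343, edgeR). TPX2, which activates AURKA and places it on spindle microtubules, had 372, 363 and 385 CPM in TAF2 libraries against 327, 325 and 322 CPM in eGFP libraries. Its log2 fold change was 0.20 (SE 0.0234; adjusted p = 1.71e-09, edgeR). Scaled to transcript length, PLK1 (126 CPM per kb in TAF2 and 115 in eGFP cells) and TPX2 (107 and 92.9) had the highest levels of the 51 genes, followed by TOP2A (96.5 and 90.3) and AURKA (92.9 and 87.4). These levels use the median length of the transcripts matched to each gene.

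The spindle checkpoint genes, whose products delay anaphase while kinetochores are unattached, rose in 2 of 5 cases and fell in 1. These are shares of 40% and 20% of few genes, beside 20.6% and 22.4% of all tested genes. BUB1B, which encodes the checkpoint protein BubR1, had 89.0, 90.5 and 87.2 CPM in TAF2 libraries against 76.9, 77.9 and 78.1 CPM in eGFP libraries. No values overlapped, and the log2 fold change was 0.19 (SE 0.0329; adjusted p = 4.49e-06, edgeR). BUB1, the kinase that recruits checkpoint proteins to kinetochores, had 113, 111 and 111 CPM in TAF2 libraries against 104, 107 and 107 CPM in eGFP libraries (0.08, SE 0.0295, adjusted p = 0.029, edgeR). Its call was lost in 7 of 16 alternatives, among them those without TAF2 replicate 1 (0.07) or eGFP replicate 1 (0.06). MAD2L1, the checkpoint effector MAD2, had 69.4, 62.8 and 65.9 CPM in TAF2 libraries against 70.6, 71.2 and 69.6 CPM in eGFP libraries. The lowest eGFP library was barely above the highest TAF2 library, and the log2 fold change of -0.09 (SE 0.0376; adjusted p = 0.0406, edgeR) was no longer called in 10 of 16 alternatives, among them leaving out any library but TAF2 replicate 1. BUB3, which brings the BUB kinases to kinetochores, was not called, with 111 ± 2.67 CPM in TAF2 and 111 ± 1.47 CPM in eGFP cells (0.01, SE 0.0295). The checkpoint kinase TTK had 25.5 ± 1.98 CPM in TAF2 and 23.5 ± 1.21 CPM in eGFP cells (SD, n = 3 each) and was called only without TAF2 replicate 2 (0.16).

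The chromosomal passenger complex corrects wrong attachments and later directs cytokinesis, and its 4 subunit genes did not move together. INCENP, its scaffold, had 81.4, 74.8 and 77.0 CPM in TAF2 libraries against 86.2, 89.6 and 89.4 CPM in eGFP libraries. It fell in every TAF2 library relative to every eGFP library, by 0.18 on the log2 scale (log2 fold change -0.18 with SE 0.0349; adjusted p = 2.83e-05, edgeR). CDCA8, which encodes borealin, had 57.0, 54.1 and 55.8 CPM in TAF2 libraries against 49.8, 50.03 and 49.8 CPM in eGFP libraries, a rise of 0.16 (SE 0.0398; adjusted p = 0.00122, edgeR). AURKB, the kinase of the complex, had 49.5, 49.0 and 50.97 CPM in TAF2 libraries and 46.9, 46.9 and 44.9 CPM in eGFP libraries (0.11, SE 0.0415, adjusted p = 0.0313, edgeR). Its call was lost in 6 of 16 alternatives, among them those without TAF2 replicate 3 (0.10) or eGFP replicate 3 (0.09). BIRC5, which encodes survivin, was 135 ± 1.32 CPM in TAF2 and 131 ± 0.657 CPM in eGFP cells (SD, n = 3 each), without overlap and without a call (0.04, SE 0.027). The ratio of INCENP to AURKB CPM was 1.56 ± 0.0746 in TAF2 and 1.91 ± 0.0761 in eGFP libraries (SD, n = 3 each). Its ranges could not meet, since each gene's groups lay apart and in opposite directions.

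**Figure D3:**
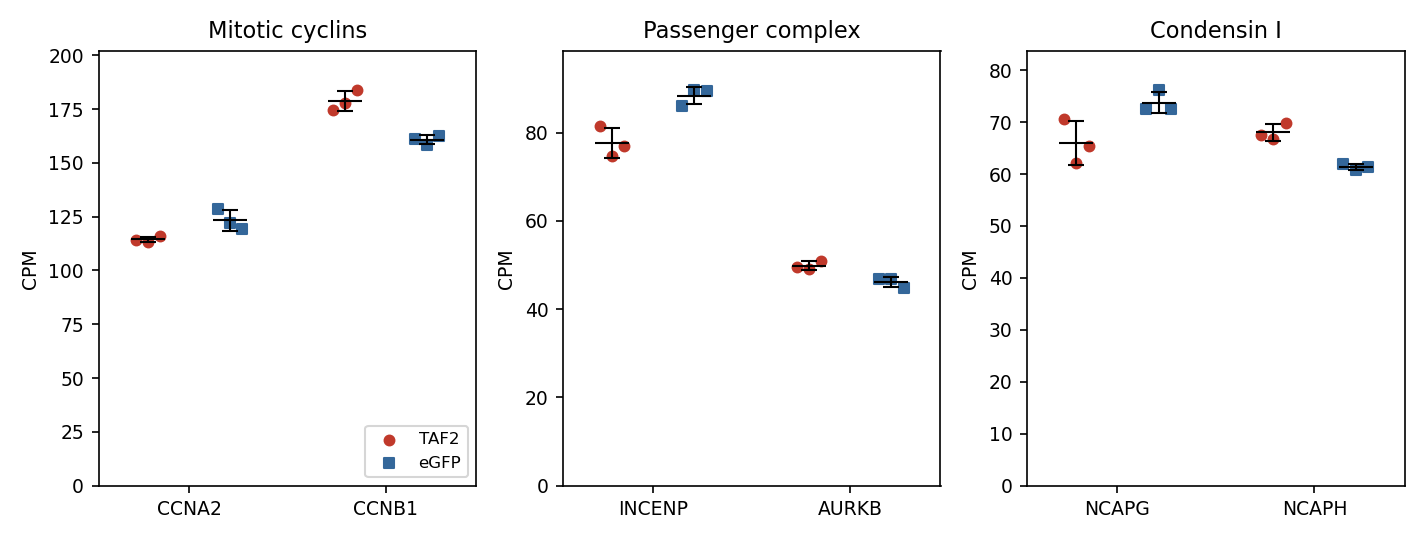
CPM (vertical axes, from 0) of a gene that fell and a related gene that rose in each of 3 sets: the mitotic cyclins, the passenger complex and condensin I. Red circles are the 3 TAF2 libraries, blue squares the 3 eGFP libraries, and black lines the mean with SD. CCNA2, INCENP and NCAPG sit lower in TAF2 libraries, and CCNB1, AURKB and NCAPH higher.

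Condensin and the other genes of chromosome structure gave 2 rises (28.6%), 1 fall (14.3%) and 4 genes not called. Over all tested genes the shares were 20.6% higher and 22.4% lower. NCAPH, the kleisin that closes the condensin I ring, had 67.6, 66.7 and 69.8 CPM in TAF2 libraries against 62.0, 60.7 and 61.4 CPM in eGFP libraries (log2 fold change 0.15 with SE 0.0366; adjusted p = 0.000932, edgeR). NCAPG, a regulatory subunit that binds this kleisin, had 70.5, 62.1 and 65.5 CPM in TAF2 libraries against 72.5, 76.1 and 72.6 CPM in eGFP libraries (-0.16, SE 0.0396; adjusted p = 0.00116, edgeR). Neither gene's groups overlapped, and they moved in opposite directions. The ratio of NCAPG to NCAPH CPM was 1.04, 0.931 and 0.938 in TAF2 libraries, against 1.17, 1.253 and 1.18 in eGFP libraries. For that reason the ranges of this ratio could not meet either. NCAPG is overlapped by LCORL, which had 10.49 CPM in TAF2 and 13.7 CPM in eGFP cells. The third condensin I subunit, NCAPD2, had 228 ± 3.48 CPM in TAF2 and 219 ± 5.22 CPM in eGFP cells (SD, n = 3 each), and its log2 fold change of 0.06 passed the threshold only in some alternatives, among them that without eGFP replicate 1 (0.07).

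TOP2A, the topoisomerase that untangles sister chromatids, had the highest CPM of the 51 genes. It had 584, 537 and 546 CPM in TAF2 libraries against 502, 528 and 530.0 CPM in eGFP libraries. The groups were narrowly apart, and the rise of 0.10 (SE 0.0295; adjusted p = 0.0155, edgeR) was 0.07 and not called without eGFP replicate 1. MKI67, whose protein is the proliferation marker Ki-67, was not called, with 410.2, 393 and 402 CPM in TAF2 libraries and 394, 406 and 399 CPM in eGFP libraries. Its log2 fold change was 0.01 with an SE of 0.0226, the smallest error of the 51.

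Kinesins, the motors that build the spindle and carry chromosomes, rose in 5 of 8 cases (62.5%) and fell in 1 (12.5%). The shares over all tested genes were 20.6% and 22.4%. KIF23, the motor of the centralspindlin complex at the cell's midzone, had 44.8, 42.3 and 44.7 CPM in TAF2 libraries against 36.8, 36.1 and 38.4 CPM in eGFP libraries (log2 fold change 0.24 with SE 0.0452; adjusted p = 1.99e-05, edgeR). KIF11, which pushes spindle poles apart, had 81.7, 76.1 and 78.5 CPM in TAF2 libraries against 69.7, 73.3 and 72.3 CPM in eGFP libraries (0.14, SE 0.0357; adjusted p = 0.00184, edgeR). In both genes every TAF2 library was above every eGFP library. KIF14, a cytokinesis motor, had 36.2, 30.7 and 31.0 CPM in TAF2 libraries against 27.2, 30.1 and 28.6 CPM in eGFP libraries. TAF2 replicate 1 stood high, and the rise of 0.19 (SE 0.0583; adjusted p = 0.00927, edgeR) was not called without it (0.12) or without eGFP replicate 1 (0.15).

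Among the other motors, KIF2C, which takes microtubules apart at centromeres, had 83.0 ± 1.52 CPM in TAF2 and 76.1 ± 5.35 CPM in eGFP cells (0.12), with a call lost without replicate 3 of TAF2 (also 0.12) or of eGFP (0.08). KIF20A, a midzone motor, had 69.3 ± 2.78 CPM in TAF2 and 64.7 ± 1.6 CPM in eGFP cells (0.10), a call lost in 7 of 16 alternatives, among them those without TAF2 replicate 1 or 3 or eGFP replicate 3. Its range overlaps that of CDC23 on the genome. KIF18A, a motor that damps chromosome movements, was the only kinesin that fell, with 14.8, 13.0 and 12.7 CPM in TAF2 libraries and 13.8, 16.6 and 15.9 CPM in eGFP libraries. The groups overlapped, and its log2 fold change of -0.19 (SE 0.0784; adjusted p = 0.0473, edgeR) was not called in 11 of 16 alternatives, among them those without TAF2 replicate 2 (-0.17) or 3 (-0.14) or eGFP replicate 2 (-0.13) or 3 (-0.16). KIF15 had 42.3 ± 3.7 CPM in TAF2 and 39.6 ± 1.62 CPM in eGFP cells (SD, n = 3 each), called only without TAF2 replicate 2 (0.14). KIF4A, a chromosome-bound motor, had 65.3 ± 0.938 CPM in TAF2 and 61.6 ± 1.11 CPM in eGFP cells without overlap (0.08, not called; called without TAF2 replicate 1 at 0.10). Its near-identical copy KIF4B reached at most 0.214 CPM in any library.

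Kinetochore genes were mostly not called, as were 7354 of all 12902 tested genes. Of the 7, 2 rose (28.6%, beside 20.6% of all tested genes). CENPA, the histone H3 variant that marks centromeres, had 28.5, 29.9 and 29.9 CPM in TAF2 libraries against 26.6, 26.1 and 25.5 CPM in eGFP libraries, clearly apart (log2 fold change 0.17 with SE 0.0523; adjusted p = 0.00613, edgeR). The NDC80 complex, which grips microtubules, showed 1 rise among its 4 genes. SPC25 had 19.3, 20.8 and 20.7 CPM in TAF2 libraries against 17.2, 19.4 and 18.003 CPM in eGFP libraries (0.16, SE 0.0639; adjusted p = 0.0404, edgeR), with overlapping groups and a call lost in 8 of 16 alternatives, among them those without TAF2 replicate 2 or 3 or eGFP replicate 1 or 3. NDC80 had 25.7, 24.5 and 26.3 CPM in TAF2 libraries and 24.6, 22.8 and 24.5 CPM in eGFP libraries, which overlapped (0.09, SE 0.056). NUF2 had 25.6 ± 2.53 CPM in TAF2 and 24.1 ± 1.56 CPM in eGFP cells (SD, n = 3 each). Per kilobase of transcript, SPC24 stood at 1.91 CPM in TAF2 and 2.04 in eGFP cells, the lowest of the 51 genes. Its partners were at 14.96 and 13.4 (SPC25), 13.4 and 12.7 (NUF2) and 11.8 and 11.03 (NDC80).

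Spindle genes other than TPX2 that rose were PRC1 and NUSAP1. PRC1, which bundles microtubules at the midzone, had 117, 116 and 123 CPM in TAF2 libraries, while the eGFP libraries were tightly grouped at 106.0, 105.9 and 105.7 CPM (log2 fold change 0.16 with SE 0.0296; adjusted p = 1.31e-05, edgeR). NUSAP1, which links microtubules near chromosomes, had 66.8, 65.9 and 64.9 CPM in TAF2 libraries and 59.3, 58.6 and 59.7 CPM in eGFP libraries (0.15, SE 0.0368; adjusted p = 0.000671, edgeR). DLGAP5 had 50.1 ± 3.36 CPM in TAF2 and 49.5 ± 1.8 CPM in eGFP cells (SD, n = 3 each) and was not called.

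At the end of mitosis, separase and its inhibitor rose together. ESPL1, which encodes separase, the protease that cuts cohesin, had the largest fold change of the 51 genes. It had 51.4, 55.6 and 52.7 CPM in TAF2 libraries against 45.3, 41.9 and 44.2 CPM in eGFP libraries (log2 fold change 0.28 with SE 0.0431; adjusted p = 8.06e-07, edgeR). PTTG1, which encodes securin, had 42.4, 47.3 and 44.5 CPM in TAF2 libraries against 38.6, 41.4 and 39.3 CPM in eGFP libraries (0.17, SE 0.0462; adjusted p = 0.00213, edgeR). Neither gene's groups overlapped, and the related PTTG2 and PTTG3P were at 0 in all libraries.

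Of the genes of cytokinesis, those for centralspindlin and its partner rose. RACGAP1, which forms centralspindlin with KIF23, had 56.7, 59.2 and 60.4 CPM in TAF2 libraries against 51.9, 50.97 and 49.96 CPM in eGFP libraries (log2 fold change 0.21 with SE 0.0398; adjusted p = 3.99e-05, edgeR). ECT2, the exchange factor that centralspindlin recruits to activate RhoA, had 108, 96.7 and 102 CPM in TAF2 libraries against 88.1, 92.2 and 91.5 CPM in eGFP libraries (0.18, SE 0.0349; adjusted p = 8.71e-05, edgeR). With KIF23 at 0.24, all 3 genes of this assembly lay without overlap above the eGFP range. ANLN, the ring scaffold anillin, was not called, with 135, 134 and 133 CPM in TAF2 libraries and 139, 141 and 132 CPM in eGFP libraries (-0.04, SE 0.0283).

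The remaining mitosis genes were marked by a wide spread between replicates. In 7 of them (CENPE, CENPF, SPC24, HMMR, ASPM, SMC2 and SMC4) the coefficient of variation was over 10% in at least 1 group, and TAF2 replicate 1 was the highest TAF2 library and eGFP replicate 1 the lowest eGFP library in all 7. Of the other 44 genes, TAF2 replicate 1 was the highest of its group in 20 and eGFP replicate 1 the lowest of its group in 19. CENPE, the kinetochore kinesin that moves chromosomes to the metaphase plate, had 46.2, 28.5 and 25.9 CPM in TAF2 libraries and 31.0, 40.0 and 35.4 CPM in eGFP libraries. CENPF, a kinetochore and nuclear matrix protein, had 263, 197 and 197 CPM in TAF2 libraries and 207, 236 and 219.8 CPM in eGFP libraries. ASPM, a spindle pole protein, had 112, 79.7 and 77.0 CPM in TAF2 libraries and 82.9, 103 and 98.1 CPM in eGFP libraries. In each of these genes 1 TAF2 library stood above all others and the other two below all eGFP libraries.

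The condensin ATPases SMC2 and SMC4 had the same pattern at a smaller size. HMMR, a spindle assembly factor, had 56.1, 44.7 and 47.7 CPM in TAF2 libraries and 44.9, 55.9 and 52.0 CPM in eGFP libraries, and SPC24 had 5.11, 4.199 and 3.96 CPM in TAF2 libraries and 4.39, 4.95 and 4.85 CPM in eGFP libraries. In both, replicate 1 of TAF2 was again above all other libraries. The genes with a wide spread had a median transcript length of 5992 bases and a median GC content of 37.6%, against 3141 bases (3140.5) and 44.3% for the other 44. These medians do not hold for each gene. SPC24, with the lowest CPM of all the mitosis genes, had 2315 bases and 53.4% GC, and HMMR had 2930 bases. Over the 460 genes of the whole table with transcripts of at least 5000 bases, under 40% GC and at least 5 CPM, the median deviation from the group mean (log2) was 0.05 in TAF2 replicate 1, -0.02 and -0.03 in replicates 2 and 3, -0.03 in eGFP replicate 1, and 0.04 and 0.00 (0.00137) in eGFP replicates 2 and 3. For all 10349 genes of at least 5 CPM it was within 0.002 of 0 in every library. The part of length or base composition in these values was not tested.

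**Figure D4:**
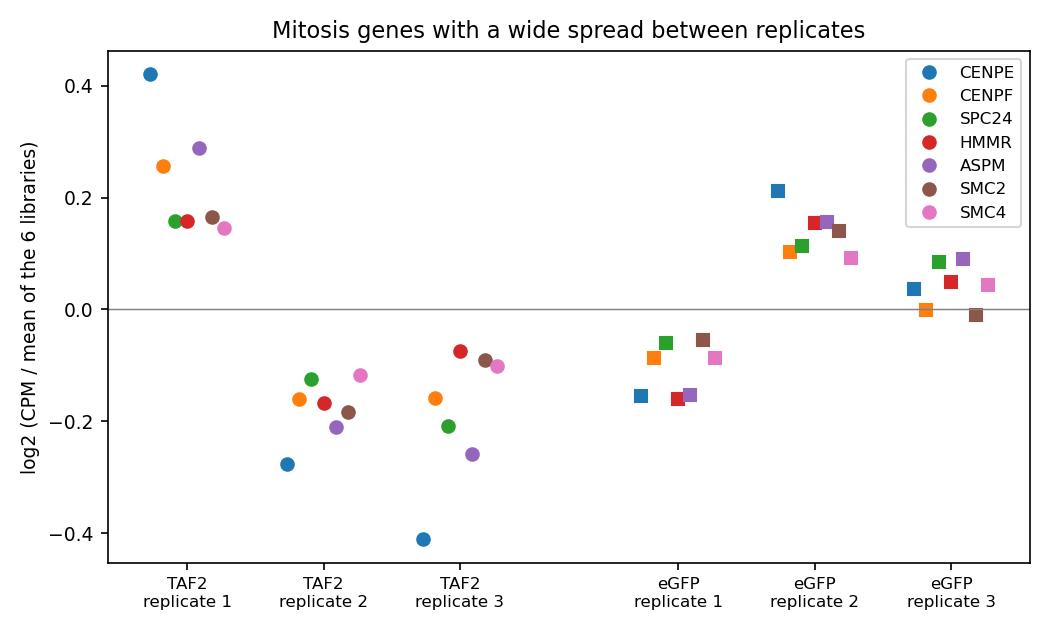
The 7 mitosis genes with a coefficient of variation over 10% in a group, as log2 of CPM over the mean of the 6 libraries (vertical axis), by library. Circles are TAF2 and squares eGFP libraries, 1 colour per gene. TAF2 replicate 1 is the highest of its group and eGFP replicate 1 the lowest of its group for all 7 genes.

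None of these 7 was called with all libraries in the fit, and their SE (0.0984 to 0.279) lay above the median SE of 0.0388 over the 51 genes. Without TAF2 replicate 1, CENPE was at -0.37, CENPF at -0.16, SMC2 at -0.15 and SMC4 at -0.12, all called lower. Without replicate 1 of both groups, a choice made after the values were seen, ASPM (-0.35) and HMMR (-0.21) were called lower as well, so that 5 mitosis genes outside chromosomes 4 and 11 fell and 23 rose. The sign or the call of 6 of the 7 thus changed with the libraries used. SPC24 kept its negative sign and stayed uncalled in every alternative.

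A wider list of 97 mitosis genes was named from their functions, again with earlier results known, and held none of the 51. It gave 24 rises and 16 falls at a median of 0.04 (log2). The rises are 24.7% of the list and the falls 16.5%, beside the 20.6% and 22.4% over all tested genes. Here too chromosomes 4 and 11 held most falls: 13 of the 14 listed genes there fell and 0 rose (all 14 had a negative log2 fold change), and on the other chromosomes 24 of 83 rose and 3 fell. The largest rises were those of HJURP, the chaperone that loads CENPA, at 0.42 (76.0 ± 0.293 CPM in TAF2 and 57.0 ± 1.48 CPM in eGFP cells, SD, n = 3 each), and MYBL2, the B-MYB factor that acts with MuvB before FOXM1, at 0.41 (218 ± 3.07 and 164 ± 0.793 CPM). They exceeded the rise of every one of the 51. CEP55 and the citron kinase CIT, which complete abscission, rose by 0.36 and 0.25, PKMYT1, a kinase that inhibits CDK1, by 0.32, and ZWILCH, of the kinetochore RZZ complex, by 0.27.

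The largest falls of the wider list all lay on chromosomes 4 and 11. LIN54, the DNA-binding subunit of MuvB that contacts the CHR, was 49.0 ± 1.65 CPM in TAF2 and 67.4 ± 1.5 CPM in eGFP cells (log2 fold change -0.46 with SE 0.0393; adjusted p = 4.99e-13, edgeR). CENPC, the inner kinetochore scaffold, had -0.45. WEE1, the kinase that holds CDK1 inactive, was 55.5 ± 1.59 CPM in TAF2 and 73.1 ± 3.15 CPM in eGFP cells (-0.40; SD, n = 3 each). TSG101, of the abscission machinery, followed at -0.35, the spindle pole protein NUMA1 at -0.26 and the augmin subunit HAUS3 at -0.25. Thus of the kinases that inhibit CDK1, PKMYT1 was higher and WEE1 lower in TAF2 cells. Of the factors of late cell cycle promoters named so far, FOXM1 and MYBL2 were higher and LIN54 lower. LIN9, another MuvB subunit on the wider list, was not called (0.06). WEE1 and LIN54 lie on chromosomes 11 and 4, where most tested genes were lower.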

How the data were processed

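RNA-seq of 6 HepG2 libraries was deposited as a table of expected counts per gene that the authors had estimated with RSEM on hg38, per the submitters' processing notes; aligner, versions and strand setting: not given in the sources used here. The deposited expected counts were made whole by rounding. edgeR's filterByExpr kept 12902 of 26475 genes, which were scaled by TMM and tested with edgeR 4.0.16 (R 4.3.3) by the robust quasi-likelihood test of TAF2 over eGFP, with Benjamini-Hochberg adjustment over all tested genes and a threshold of 0.05. SEs are the absolute log2 fold change over the square root of F. Chromosomes were assigned through RefSeq (GRCh38.p14) for 98.1% of tested genes, and transcript lengths and GC content through GENCODE transcripts for all 51 genes. Alternatives used other scalings and filters, DESeq2 1.42.0, limma-voom (limma 3.58.1), a test against 1.2-fold, a replicate block and leaving out libraries. The steps were tested on simulated data. The genes and lists were chosen with earlier results of these data known. By rule, all 51 genes were named, with values per library for the 3 of smallest p in each role and for every gene that fell; from the other lists, genes of at least 5 CPM with the largest changes were named, up to 6 (wider mitosis list) or 3 per direction. Values per library of other genes were added after they were seen. A gene that this rule picks from the replication list is not reported here.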

Additional observations from a re-analysis of the deposited data

How the results depend on the processing

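Of the 32 mitosis genes called, 20 (18 higher, and INCENP and NCAPG lower) kept their call under every alternative except the test against 1.2-fold, and none of the 32 changed sign under any alternative. The number of rises was 22 to 29 under other scalings, filters and tools, and 22 to 27 when 1 library was left out. The number of falls, 5, was 3 under upper-quartile scaling, the DESeq2 test, no filter on low counts and the replicate block, and ranged from 3 to 9 when 1 library was left out; outside chromosomes 4 and 11 that range was 0 to 3. Without replicate 1 of both groups, chosen after seeing the data, 10 fell, 5 of them outside chromosomes 4 and 11. The test against 1.2-fold asks for larger changes and left 1243 of all genes (467 higher, 776 lower), 0 mitosis genes in either direction, 0 outside chromosomes 4 and 11, and 2 higher and 2 lower in the wider list. The genes that changed sign were all uncalled. With TMM factors from genes outside chromosomes 4 and 11 they were BUB3 (-0.00722), DLGAP5 (-0.00116) and MKI67 (-0.00852); without replicate 1 of both groups they were DLGAP5 (-0.0605), KIF15 (-0.00348), MKI67 (-0.0114) and NUF2 (-0.033). With 1 library left out, ranges were -0.261 to 0.0294 for ASPM, -0.0024 to 0.0285 for BUB3, -0.37 to 0.0821 for CENPE, -0.159 to 0.0606 for CENPF, -0.0302 to 0.0642 for DLGAP5, -0.127 to 0.035 for HMMR, -0.00156 to 0.0242 for MKI67, -0.153 to 0.0162 for SMC2 and -0.118 to 0.00973 for SMC4 (log2 fold changes). The cause was not tested. Deviations of libraries with the same replicate number correlated at -0.144, -0.224 and -0.148, and those with different numbers at 0.0153 to 0.137. Libraries with the same number thus did not deviate in the same direction. Whether the numbers mark pairs cannot be read from these values. The replicate block gave 24 rises and 3 falls. With 3 libraries a group and totals from 22276308 counts, some calls, such as those of CCNB2, MAD2L1 and KIF18A, were lost when single libraries were left out.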

Other observations

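Of 41 listed DNA replication genes 19 rose (46.3%) and 5 fell (12.2%), at a median of 0.08 (log2). Among all tested genes 20.6% were called higher and 22.4% lower. The 3 listed genes on chromosomes 4 and 11 all fell, beside 68.3% of all tested genes there. CDC45 was 30.6 ± 0.34 CPM in TAF2 and 25.0 ± 0.377 CPM in eGFP cells (0.29, SD, n = 3 each), and GINS3 and the helicase subunit MCM5 rose by 0.25 and 0.24. The falls were led by POLA2, a subunit of the primase complex (-0.27), and the flap nuclease FEN1 (-0.25), both on chromosome 11.

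Among 16 tested genes of G1 control and CDK inhibition, 5 rose and 2 fell, with a median of 0.10. CCND3, a D-type cyclin, rose by 0.44, CDKN1A, the p21 inhibitor, by 0.17 and RB1, the retinoblastoma protein, by 0.17, while the inhibitor CDKN2C (-0.17) and the pocket protein RBL2 (-0.10) fell. Of 14 tested tubulin genes 4 rose, led by TUBA4A (0.51), TUBB6 (0.25) and TUBB3 (0.22), and 2 fell, TUBB2B (-0.29) and TUBG1, the centrosomal gamma-tubulin (-0.17). These shares stand beside the 20.6% of all tested genes that rose and 22.4% that fell.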
